A study of Mus musculus with 24 samples.

Results

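The early subjective night of control fat was described by setting the 3 control arrays of circadian time CT18 against the 3 control arrays of CT12, 6 of the 24 arrays of the series. CT0 is the beginning of the subjective day, so the step covers 6 h of the night, the active phase of mice. Each array measured the RNA of inguinal fat, a subcutaneous depot, from 1 biological replicate. The control mice carried floxed Bmal1 alleles without Cre (Bmal1fx/fx), at CT18 and at CT12. The same step was also read in knockout mice (aP2-Cre+/- Bmal1fx/fx, named Ad-Bmal1-/- by the submitters), with 3 arrays at CT18 and 3 at CT12. In those mice the aP2 promoter drove Cre, and whether cells other than adipocytes recombined was not measured. Since the controls lacked Cre, Cre and the deletion differ together between the genotypes. All mice had been crossed to C57BL/6J for 6 generations or more and ate chow, were moved to constant darkness 36 h before collection began, and were fasted for 24 h before it. Every level below therefore comes from fasted animals. The labels give no age.

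The circadian clock of a cell is a transcriptional loop. BMAL1 (gene symbol Arntl) and CLOCK bind E-box sequences and switch on the period and cryptochrome genes, whose proteins inhibit them, and the genes of the nuclear receptors REV-ERB alpha and beta (Nr1d1 and Nr1d2), which repress Arntl. The activators DBP, TEF and HLF and the repressor NFIL3 act on a further element, the D-box, and so pass the rhythm on to other genes. In white fat the clock is known to time lipid storage and release and the secretion of leptin.

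The promoter sequences of the clock genes were searched for 3 motifs on both strands, because members with the same motif can be read beside the direction of their step. The windows run from 250 bases before to 50 after an annotated start (RefSeq, GRCm38.p6), and 15 of the 17 clock genes measured had one. The letters searched were CACGTG for the E-box, TTATGTAA or TTACGTAA for the D-box, and TAGGTCA for the element that REV-ERB and ROR receptors bind. The 5 windows printed are those of the clock genes that hold 1 of the 3 motifs and whose CT18 and CT12 arrays did not overlap, 1 window for each gene. They are written 5′ to 3′ on the strand of the gene, with the motif in capitals. The second annotated window of Arntl (chr7:113207261-113207560, plus strand) has the receptor element at 31 to 37 bases after the start. In the window of Nfil3 (chr13:52980990-52981289, minus strand) the same element lies on the opposite strand, 12 to 6 bases before the start. Per3 (chr4:151044616-151044915, minus strand) has 2 D-boxes, and Tef (chr15:81802423-81802722, plus strand) and Bhlhe41 (chr6:145865371-145865670, minus strand) have an E-box.
Arntl: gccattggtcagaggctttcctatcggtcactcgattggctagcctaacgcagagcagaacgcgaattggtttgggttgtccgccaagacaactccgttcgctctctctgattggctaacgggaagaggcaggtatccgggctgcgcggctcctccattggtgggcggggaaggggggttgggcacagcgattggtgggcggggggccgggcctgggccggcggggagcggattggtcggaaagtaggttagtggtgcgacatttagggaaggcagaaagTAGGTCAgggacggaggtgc
Nfil3: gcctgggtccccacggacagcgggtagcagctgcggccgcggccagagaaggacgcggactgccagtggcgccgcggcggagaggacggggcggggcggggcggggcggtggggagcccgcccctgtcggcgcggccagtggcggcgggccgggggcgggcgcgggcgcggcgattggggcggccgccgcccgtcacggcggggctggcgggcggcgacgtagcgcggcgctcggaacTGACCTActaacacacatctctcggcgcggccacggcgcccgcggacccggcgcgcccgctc
Per3: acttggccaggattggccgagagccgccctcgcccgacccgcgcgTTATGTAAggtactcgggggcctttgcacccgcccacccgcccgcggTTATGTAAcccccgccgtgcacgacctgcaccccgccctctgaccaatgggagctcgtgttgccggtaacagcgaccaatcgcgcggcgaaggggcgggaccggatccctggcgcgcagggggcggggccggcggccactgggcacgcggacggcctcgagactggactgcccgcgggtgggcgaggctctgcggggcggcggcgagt
Tef: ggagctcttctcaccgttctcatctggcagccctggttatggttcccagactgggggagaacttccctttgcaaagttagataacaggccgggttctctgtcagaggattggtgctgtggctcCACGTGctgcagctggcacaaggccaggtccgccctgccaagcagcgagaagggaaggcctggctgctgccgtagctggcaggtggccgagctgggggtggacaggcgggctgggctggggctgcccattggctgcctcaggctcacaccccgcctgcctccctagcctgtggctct
Bhlhe41: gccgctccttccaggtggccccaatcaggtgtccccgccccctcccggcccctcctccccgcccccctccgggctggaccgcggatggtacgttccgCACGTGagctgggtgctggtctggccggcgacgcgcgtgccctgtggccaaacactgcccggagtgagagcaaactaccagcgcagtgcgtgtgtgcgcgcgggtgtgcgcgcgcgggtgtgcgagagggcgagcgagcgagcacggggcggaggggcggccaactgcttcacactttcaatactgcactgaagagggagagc

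Of all 27025 genes with a window, 8.09% held the E-box, 1.23% the D-box and 2.97% the receptor element in at least 1 window. Among the 15 clock genes the E-box was found in Bhlhe41, Ciart, Cry1, Per1 and Tef, the D-box in Per3, and the receptor element in Arntl and Nfil3. Arntl and Nfil3 were the 2 clock genes whose 3 CT18 arrays all lay above the 3 CT12 arrays (values below). Of the E-box genes, Tef and Bhlhe41 had all CT18 arrays below, and the groups overlapped in Cry1 (0.28), Per1 (-0.11) and Ciart (-0.16). Per3, with the D-box, had all CT18 arrays below. A link between motif and direction was not tested. The windows of Nr1d1, Nr1d2 and Dbp held none of these letters. A match describes the sequence and does not show binding.

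Few genes passed the test across the whole array. Log2 differences are CT18 minus CT12, with the standard error (SE) of a limma fit over all 24 arrays, and a gene was called at a Benjamini-Hochberg adjusted p under 0.05. Of 19938 genes tested, 5 were called in control fat (0.0251%), 1 higher at CT18 (0.00502%) and 4 lower (0.0201%). Nr1d1, Nr1d2, Dbp and Zfp622 fell and Arntl rose, and 4 of these 5 are clock genes. An unadjusted p under 0.05 was reached by 1109 genes (5.56%), with 2.98% higher and 2.58% lower at CT18. The CT18 and CT12 arrays did not overlap in 2070 genes (10.4%), with 5.67% higher and 4.71% lower. Of the 17 clock genes measured, 4 were called and 10 (58.8%) had an unadjusted p under 0.05, and the groups did not overlap in 9 (52.9%), of which 2 were higher and 7 lower at CT18. The median size of the difference, whatever its sign, was 0.35 over the clock genes and 0.08 over all genes. Clock genes held 7 of the 12 smallest p-values of all genes tested, and also 7 of the 20 smallest.

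Nr1d1, the gene of REV-ERB alpha, had log2 levels of 7.55, 7.31 and 7.37 on the CT18 arrays, against 8.69, 9.19 and 8.98 on the CT12 arrays. The groups lay far apart, with over 1 log2 unit between the highest CT18 and the lowest CT12 array. The difference was -1.55 ± 0.16 (limma adjusted p = 5.49e-05), a level at CT18 that was 0.342 times that at CT12. Nr1d2, its paralogue, had 8.22, 7.93 and 7.80 at CT18, against 8.72, 9.47 and 9.39 at CT12. Again no array of one time reached those of the other, although CT12 replicate 1 lay closest to the CT18 arrays. The difference was -1.21 ± 0.17 (limma adjusted p = 0.00376). Rora, whose receptor activates through the element that REV-ERB occupies, differed by -0.06 ± 0.13 with overlapping groups.

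Arntl went the other way. It had 7.04, 7.38 and 7.55 at CT18, against 6.75, 6.04 and 6.22 at CT12, and the groups did not overlap. The difference was 0.98 ± 0.16 (limma adjusted p = 0.0179), 1.98 times the CT12 level. Clock, the partner of BMAL1, had 9.50, 9.48 and 9.66 at CT18, against 9.71, 9.23 and 9.25 at CT12. These groups overlapped, and the difference of 0.15 ± 0.14 did not pass.

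The D-box regulators were divided by sign. Dbp, an activator, had 7.04, 6.84 and 6.72 at CT18, against 7.60, 8.04 and 7.84 at CT12. All CT18 arrays lay below all CT12 arrays, with a difference of -0.96 ± 0.16 (limma adjusted p = 0.026). The related activators Hlf and Tef had negative differences of -0.70 ± 0.15 and -0.35 ± 0.10, without overlap, that did not pass (limma adjusted p = 0.186 and 0.61). Hlf had 7.71, 7.61 and 7.25 at CT18, against 7.96, 8.12 and 8.60 at CT12. Tef, whose E-box is printed above, had 7.17, 6.90 and 7.05 at CT18, against 7.27, 7.39 and 7.51 at CT12. Nfil3, the repressor of the same sites, had 8.51, 7.90 and 8.12 at CT18, against 7.62, 6.44 and 6.67 at CT12. Its difference of 1.27 ± 0.26 was positive and larger than that of Arntl but did not pass (limma adjusted p = 0.175). CT12 replicate 1 lay more than 0.9 log2 units above the other CT12 arrays here.

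Of the period and cryptochrome genes, the inhibitors of CLOCK and BMAL1, only Per3 had groups that did not overlap. Per3, the gene with 2 D-boxes, had 7.47, 7.11 and 7.19 at CT18, against 7.90, 8.36 and 8.14 at CT12. The CT18 arrays all lay lower, and the difference of -0.87 ± 0.16 missed the threshold (limma adjusted p = 0.0833). Cry1 differed by 0.28 ± 0.13, Per1 by -0.11 ± 0.14, Per2 by -0.06 ± 0.10 and Cry2 by 0.01 ± 0.11, and none of these 4 passed. Among the output repressors, Bhlhe41 (DEC2) had 6.24, 7.07 and 6.37 at CT18, against 7.74, 7.70 and 7.89 at CT12. The groups did not overlap, but the difference of -1.22 ± 0.35 did not pass (limma adjusted p = 0.583). Its CT18 arrays ran from 6.24 to 7.07, while the SE is that of the fit over all 8 groups. Bhlhe40 (DEC1) differed by 0.07 ± 0.12. Ciart (CHRONO) differed by -0.16 ± 0.23 at its brighter probe set and by -0.51 at its dimmer one, and did not pass. In 8 of the 9 clock genes without overlap, CT12 replicate 1 was the CT12 array nearest to CT18, and in 7 of the 9 CT18 replicate 1 was the CT18 array nearest to CT12. The genotype of CT12 replicate 1 is doubted below.

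**Figure D1:**
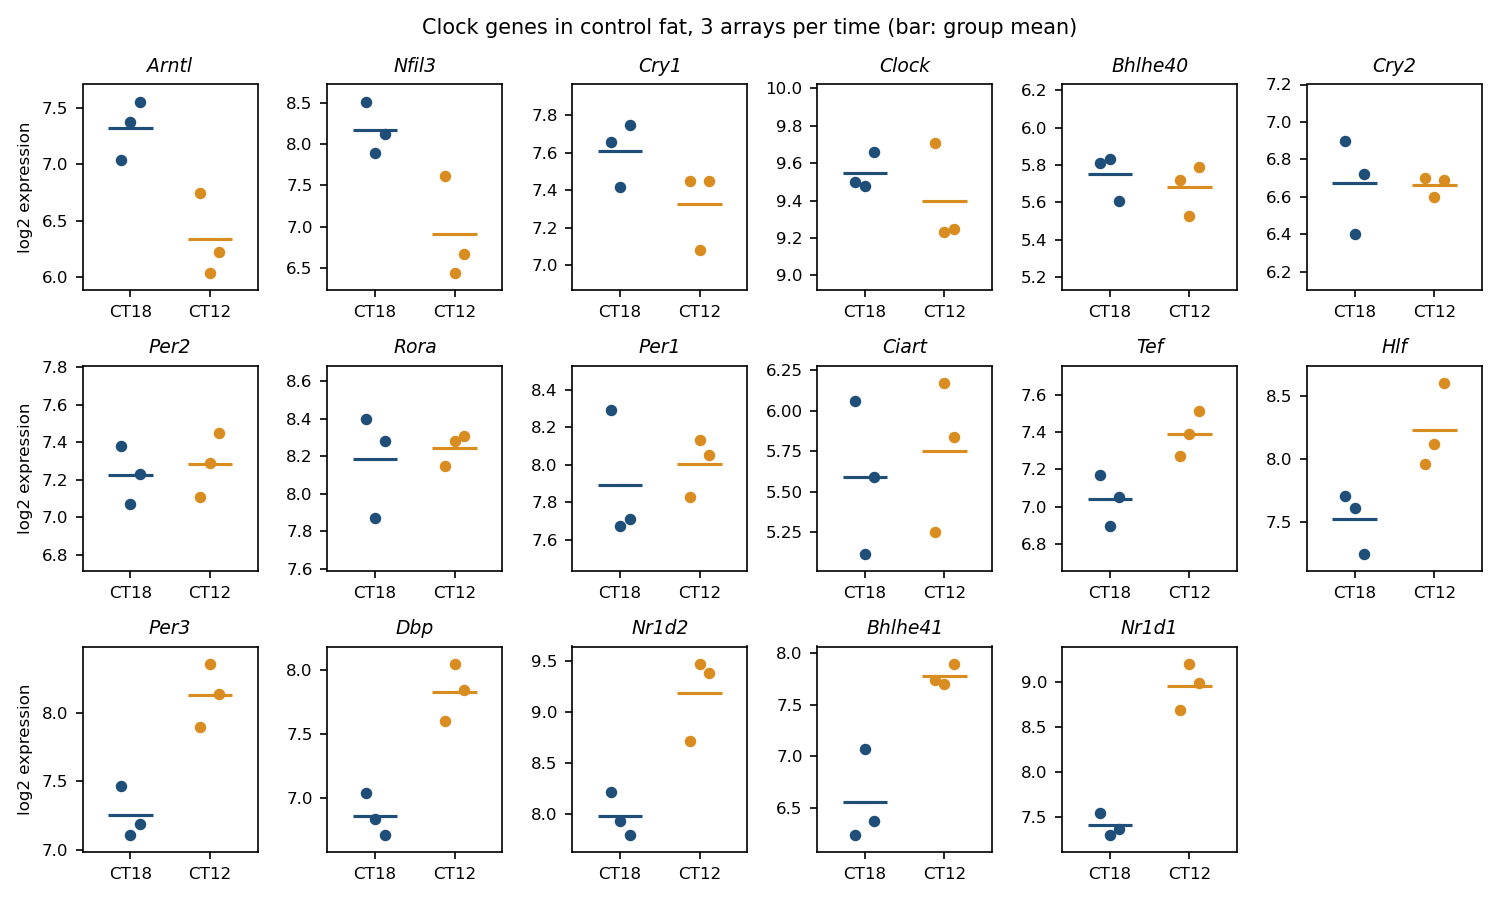
Log2 expression of the 17 clock genes (vertical axes, a separate scale for each gene) on the CT18 and CT12 arrays of control fat; dots are arrays and bars group means. Arntl and Nfil3 have all CT18 arrays above the CT12 arrays, and Tef, Hlf, Per3, Dbp, Nr1d2, Bhlhe41 and Nr1d1 have them all below.

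The only called gene outside the clock was Zfp622, a zinc finger protein whose yeast relative takes part in making the large ribosomal subunit. It had 8.43, 8.26 and 8.24 at CT18, against 8.76, 8.73 and 8.75 at CT12. The CT12 arrays lay within 0.03 of each other and above every CT18 array, and the difference was -0.43 ± 0.07 (limma adjusted p = 0.0179). Its promoter window held none of the 3 motifs.

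How far these calls hold depends on the arrays in the fit. Nr1d1 was called in each of 15 alternative fits, Nr1d2 in 11, Arntl in 9, Dbp in 8 and Zfp622 in 6. The count of called genes was 1 without CT12 replicate 2, without CT12 replicate 3 or without CT18 replicate 3, and 2 without CT18 replicate 2. CT12 replicate 1 and CT18 replicate 3 were doubted because genes that differ by genotype lie toward the knockout level there. An example is the carboxylesterase gene Ces1d, named from earlier results. It had 10.90, 10.80 and 10.51 on the control CT18 arrays and 10.32, 10.93 and 11.09 on the control CT12 arrays, replicates 1, 2 and 3 in turn. Knockout fat had 10.33, 10.12 and 10.75 at CT18 and 11.06, 9.99 and 10.26 at CT12, so replicate 3 at CT18 and replicate 1 at CT12 stood toward the other genotype in both. Whether the labels of these arrays were exchanged between the genotypes was not tested, and the labels were used as given. Without those 4 arrays, 6 genes were called in control fat: Nr1d1, Nr1d2, Arntl, Nfil3, Per3 and the lipid carrier gene Apod. Dbp and Zfp622 did not pass then.

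Over the 4 times the called genes had different courses. They are shown for control fat as means ± SD (n = 3), together with Per3 and Nfil3, which were not called. The neighbouring steps share arrays with this one, so they are given side by side and were not tested against it. Nr1d1 had 8.45 ± 0.21 at CT0, 9.90 ± 0.10 at CT6, 8.95 ± 0.25 at CT12 and 7.41 ± 0.13 at CT18. Its highest mean thus fell at CT6, and it was already lower at CT12. Nr1d2 had 8.02 ± 0.11, 9.13 ± 0.09, 9.19 ± 0.41 and 7.98 ± 0.21 in the same order. Dbp had 6.62 ± 0.06, 7.77 ± 0.29, 7.82 ± 0.22 and 6.87 ± 0.16. For both, CT6 and CT12 differed by less than the spread between replicates, and CT18 and CT0 lay lower. Per3 had 6.80 ± 0.12, 7.67 ± 0.20, 8.13 ± 0.23 and 7.26 ± 0.19. Arntl ran the opposite way, with 7.97 ± 0.0025, 6.73 ± 0.16, 6.34 ± 0.37 and 7.32 ± 0.26, lowest at CT12 and highest at CT0. Nfil3 had 7.82 ± 0.41, 6.81 ± 0.24, 6.91 ± 0.62 and 8.18 ± 0.31, so its highest mean was at CT18, within the spread of CT0. Zfp622 had 8.55 ± 0.03, 8.71 ± 0.07, 8.74 ± 0.02 and 8.31 ± 0.10, with its lowest mean at CT18.

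**Figure D2:**
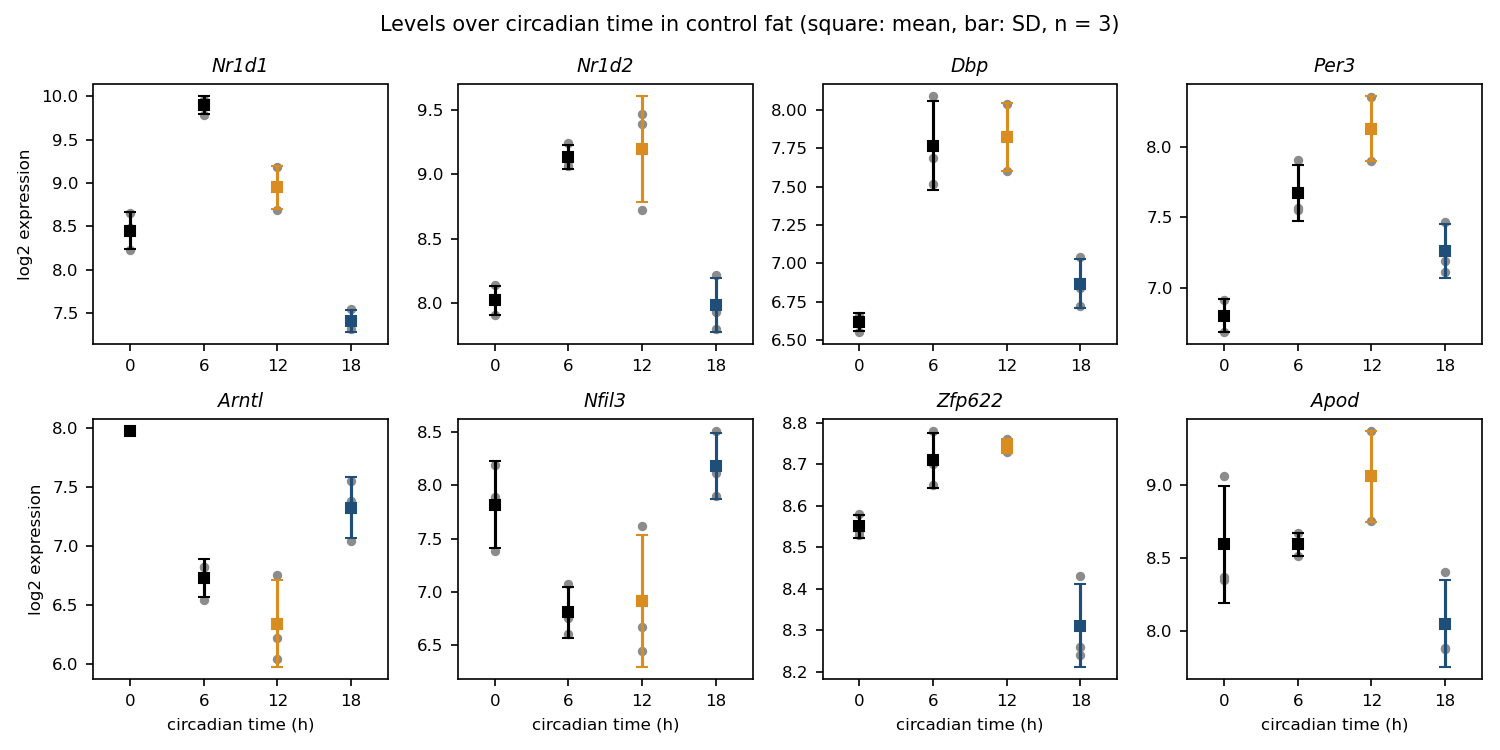
Log2 expression in control fat (vertical axes, a separate scale for each gene) against circadian time in hours; dots are arrays, squares means and bars SD (n = 3). Nr1d1 is highest at CT6, Nr1d2, Dbp and Per3 are high at CT6 and CT12, and Arntl is lowest at CT12.

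The genes next in rank did not pass. On the falling side, Apod, which encodes the lipid carrier apolipoprotein D, had 7.87, 7.88 and 8.40 at CT18, against 8.75, 9.37 and 9.06 at CT12 (-1.01 ± 0.21, limma adjusted p = 0.175). Slc6a6, the taurine transporter, had 8.28, 8.35 and 8.20 at CT18, against 8.55, 8.89 and 9.03 at CT12 (-0.55 ± 0.11). Neither gene had overlapping groups. Cpeb1, which binds the tails of mRNAs and controls their translation, differed by -0.60 ± 0.12, and Eef2k, the kinase that inhibits translation elongation factor EF2, by -0.44 ± 0.10. On the rising side the smallest p-values after Arntl and Nfil3 belonged to Snrnp70, a protein of the U1 splicing particle, and Hyou1, a chaperone of the endoplasmic reticulum. Snrnp70 had 10.43, 10.32 and 10.39 at CT18, against 9.90, 9.98 and 10.09 at CT12 (0.39 ± 0.08, limma adjusted p = 0.175). Hyou1 had 7.02, 7.24 and 7.15 at CT18, against 6.70, 6.81 and 6.88 at CT12 (0.34 ± 0.08, limma adjusted p = 0.268). Cops7b, a subunit of the COP9 signalosome, Popdc2, Snx24, the semaphorin receptor Plxnd1 and the histone gene H2bc1 had differences of 0.31 to 0.35. The U3 small nucleolar RNA Rnu3a had 10.91, 9.41 and 11.07 at CT18, against 8.20, 9.18 and 8.29 at CT12. Its difference of 1.91 ± 0.49 came with CT18 replicate 2 far below the other CT18 arrays and did not pass (limma adjusted p = 0.422).

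The knockout mice gave the same step on arrays that the control step does not use. Knockout CT12 replicate 1 and knockout CT18 replicate 3, whose genotype is doubted above, are among these arrays. In knockout fat 3 genes were called (0.015%), all lower at CT18: Nr1d1, Nr1d2 and Apod. The count was 15 without knockout CT12 replicate 3 and 139 without knockout CT18 replicate 2. Nr1d1 had 7.10, 7.11 and 7.07 on the knockout CT18 arrays, against 8.67, 8.36 and 8.43 on the knockout CT12 arrays. The groups were again well apart, with a difference of -1.39 ± 0.16 (limma adjusted p = 0.000333). Nr1d2 differed by -1.29 ± 0.17 (limma adjusted p = 0.00138) and Apod by -1.47 ± 0.21 (limma adjusted p = 0.0039). All 5 genes called in control fat had the same sign in knockout fat and an unadjusted p under 0.05 there, which 14% of all genes reached in knockout fat, while 17.8% had groups without overlap there. For Dbp the knockout difference was -0.87 ± 0.16 and for Zfp622 -0.35 ± 0.07. Of the 17 clock genes, 14 had the same sign in both genotypes, as had 12317 of all 19938 genes. Of the 100 genes with the smallest p in control fat, 90 kept their sign in knockout fat, 47 with an unadjusted p under 0.05, and in 93 the knockout difference was the smaller one. These 100 were ranked on the p of the control step, and ranking by the control step favours a smaller second difference.

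Arntl, the targeted gene, had 7.43, 7.29 and 7.07 on the knockout CT18 arrays, against 6.46, 6.89 and 6.87 on the knockout CT12 arrays. Its control difference was 0.98 ± 0.16 and its knockout difference 0.52 ± 0.16. The control step exceeded the knockout step by 0.46 ± 0.22, which did not pass over all genes (limma adjusted p = 0.999). Which exons were deleted is not stated in the labels, so this probe set does not check the deletion.

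No gene passed in the test of the control step against the knockout step (0%). The lowest limma adjusted p was 0.816, and 878 genes (4.4%) had an unadjusted p under 0.05. The smallest p of that test belonged to Olfr444, an olfactory receptor gene. It had 4.78, 4.83 and 4.96 on control CT18 arrays, against 5.22, 5.12 and 5.19 on control CT12 arrays, and 5.22, 4.81 and 5.11 on knockout CT18 arrays, against 4.81, 4.71 and 4.67 on knockout CT12 arrays. Its mean level was above that of only 16.9% of genes. Hspa1l, a member of the HSP70 family, differed by -0.11 ± 0.12 in controls and by 0.67 ± 0.12 in knockouts, and Kir3dl2, Ntsr2 and Bloc1s3 also had the control step below the knockout step. Snx24, Taf5l, Ngdn, Vav2 and Hspb9 had the control step above it. Snx24, which encodes a sorting nexin, differed by 0.35 ± 0.09 in controls and by -0.11 ± 0.09 in knockouts. Without knockout CT18 replicate 2, Hspa1l and Olfr444 passed, and no other leave-out gave a call. Without the 4 doubted arrays the count was 0.

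**Figure D3:**
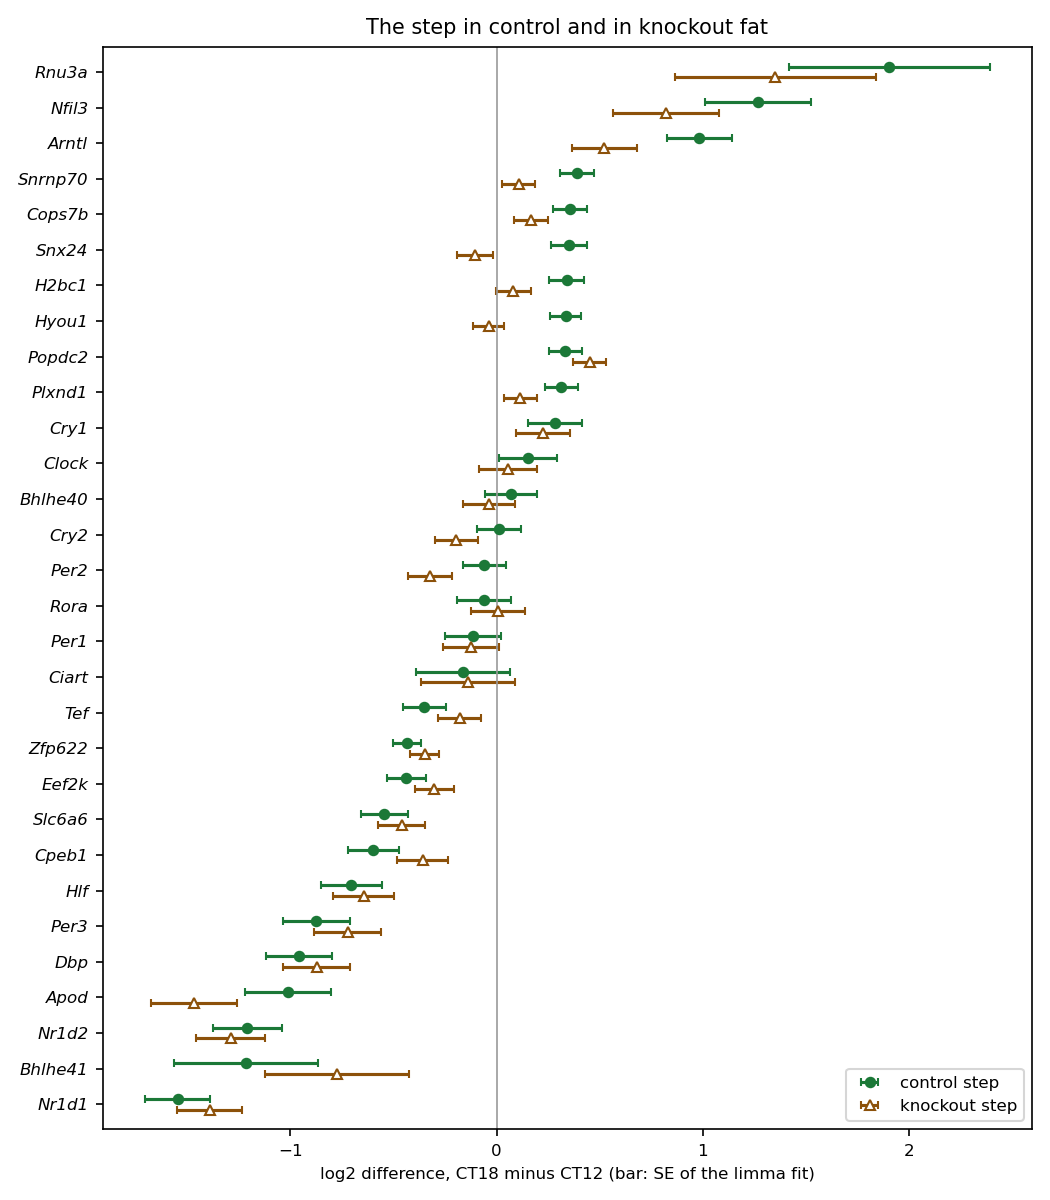
Log2 difference, CT18 minus CT12 (horizontal axis), of the clock genes and of the other genes ranked first, in control fat (filled circles) and in knockout fat (open triangles); bars are the SE of the limma fit. Nr1d1, Nr1d2, Dbp and Per3 are negative and Arntl and Nfil3 positive in both.

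Likeness of levels over the 12 control arrays was ranked among the 19938 genes with predicted genes left out. Most like Nr1d1 were Slc6a6 (Pearson r = 0.958), Rasa3 (0.945), Pfkfb3 (0.922), Rpp25 (0.911) and Dazap2 (0.905). Most like Arntl were Lpar4 (0.906), Dnaja3 (0.887), Clpx (0.846), Dusp10 (0.842) and Dtx4 (0.841). These are descriptions without a test, and the 12 arrays include the 6 of the step. Rasa3 encodes a GTPase-activating protein of Ras, and Clpx a subunit of a mitochondrial protease. In the step itself Rasa3 differed by -0.39 ± 0.14 and Clpx by 0.25 ± 0.14, and neither passed.

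Outside the clock, 41 lists of pathway genes and cell type markers were read by their counts and medians. Their 439 measured genes held no called gene, and 38 of them (8.66%) had an unadjusted p under 0.05 and 62 (14.1%) groups without overlap. These stand beside 5.56% and 10.4% of all genes. List medians ran from -0.29 to 0.31, and 31 of the 41 lay within 0.1 of 0. The median of all genes was 0.01. Of all genes, 11020 had higher and 8917 lower means at CT18 in control fat, and 11892 and 8045 in knockout fat.

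The genes of glucose use held 3 of 12 members whose CT18 arrays all lay below the CT12 arrays, as 4.71% of all genes did. Pfkfb3, whose product makes the main activator of glycolysis, had 9.70, 9.47 and 9.88 at CT18, against 10.65, 10.45 and 10.36 at CT12. The difference of -0.80 ± 0.18 did not pass (limma adjusted p = 0.224). Hk2, hexokinase, which traps glucose in the cell, differed by -0.57 ± 0.16, and Gys1, glycogen synthase, by -0.20 ± 0.14. The other 9 members overlapped. Over the list, 5 were higher and 7 lower, with a median of -0.02. Without CT18 replicate 2 the median was 0.05 with 8 of 12 higher, without CT12 replicate 3 it was -0.10, and without CT18 replicate 3 it was -0.07 with 11 of 12 lower. It was -0.06 without CT12 replicate 2 and -0.0098 without CT12 replicate 1. Of 8 genes of taurine and amino acid transport, 5 were lower and 3 higher, with a median of -0.14, or -0.08 without CT12 replicate 3, and none was called. Besides Slc6a6, the groups did not overlap in Slc7a5 (-0.35 ± 0.11) and Slc3a2 (-0.28 ± 0.11), the chains of a large neutral amino acid exchanger. These 3 genes lay lower on all CT18 arrays, as 4.71% of all genes did. Cybrd1, a ferric reductase, differed by -0.59 ± 0.17 and did not pass.

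Of 13 adipogenic transcription factors, 12 had lower means at CT18, with a median of -0.09. Pparg, the nuclear receptor that directs fat cell differentiation and lipid storage, had 10.14, 9.68 and 10.04 at CT18, against 10.37, 10.59 and 10.42 at CT12. The groups did not overlap, and the difference of -0.51 ± 0.14 did not pass (limma adjusted p = 0.483). Cebpa, its partner in differentiation, differed by -0.25 ± 0.11. Without CT18 replicate 2 the median of the list was 0.01, with 7 of 13 members higher. It was -0.14 without CT12 replicate 3 or without CT18 replicate 3, and -0.15 without CT18 replicate 1. Lipolysis and lipid droplet genes had a median of -0.14, with 8 of 11 lower. This median was -0.02 without CT12 replicate 1 and also without CT18 replicate 2. Abhd5, the coactivator of the first lipase of fat breakdown, had 10.60, 10.34 and 10.69 at CT18, against 10.88, 10.99 and 10.91 at CT12 (-0.38 ± 0.10, not passing), and G0s2, the inhibitor of that lipase, differed by -0.39 ± 0.20.

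Genes of de novo lipogenesis had no common sign, with 7 of 13 higher and 6 lower and a median of 0.01, which ran from -0.08 without CT18 replicate 3 to 0.12 without CT18 replicate 2. Fatty acid synthase, Fasn, differed by 0.77 ± 0.48 and Thrsp, a regulator of fatty acid synthesis, by 0.43 ± 0.28, while Acacb, an acetyl-CoA carboxylase, differed by -0.41 ± 0.24 and Mlxipl, the glucose-sensing activator of lipogenesis, by -0.32 ± 0.14. None of these 4 passed, and the groups overlapped in all but Mlxipl. Of 13 genes of insulin signalling, 5 were higher and 8 lower, with a median of -0.0085, which ran from -0.041 without CT18 replicate 2 to 0.0053 without CT18 replicate 3. The insulin receptor gene Insr differed by -0.17 ± 0.07. The coactivator gene Ppargc1b differed by -0.38 ± 0.11 and leptin, Lep, by -0.47 ± 0.29, and none of these 3 passed.

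Autophagy genes had 10 of 12 members lower and a median of -0.11, which was -0.07 without CT12 replicate 1. Sqstm1, the cargo receptor p62, differed by -0.25 ± 0.07, and Map1lc3b and Gabarapl1, which coat the autophagosome, by -0.26 ± 0.11 and -0.22 ± 0.11. Tfeb, a transcription factor of lysosome and autophagy genes, went the other way (0.19 ± 0.10). In this list 5 genes had groups without overlap, 4 of them lower and 1, Tfeb, higher, and none passed. Of all genes, 4.71% were lower and 5.67% higher without overlap. Of 20 genes of protein folding in the endoplasmic reticulum, 11 were higher and 9 lower, with a median of 0.02. Without CT18 replicate 2, 6 were higher and 14 lower, with a median of -0.08, and without both doubted control arrays the median was 0.11. It was also below 0 without CT12 replicate 2 (-0.018) and without CT12 replicate 3 (-0.0056). Besides Hyou1, the members with the smallest p were Pdia6 (0.23 ± 0.10), Calr (0.20 ± 0.09) and Sdf2l1 (0.27 ± 0.12), a disulphide isomerase, a calcium-binding chaperone and a chaperone partner, and none passed. Of 15 immediate early genes, 11 were higher, with a median of 0.06, which was 0.10 without CT18 replicate 3, and 8 were higher without CT12 replicate 1. The smallest p-values were those of Jun (0.31 ± 0.12), Egr1 (0.45 ± 0.19) and Btg2 (0.22 ± 0.10), which did not pass.

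**Figure D4:**
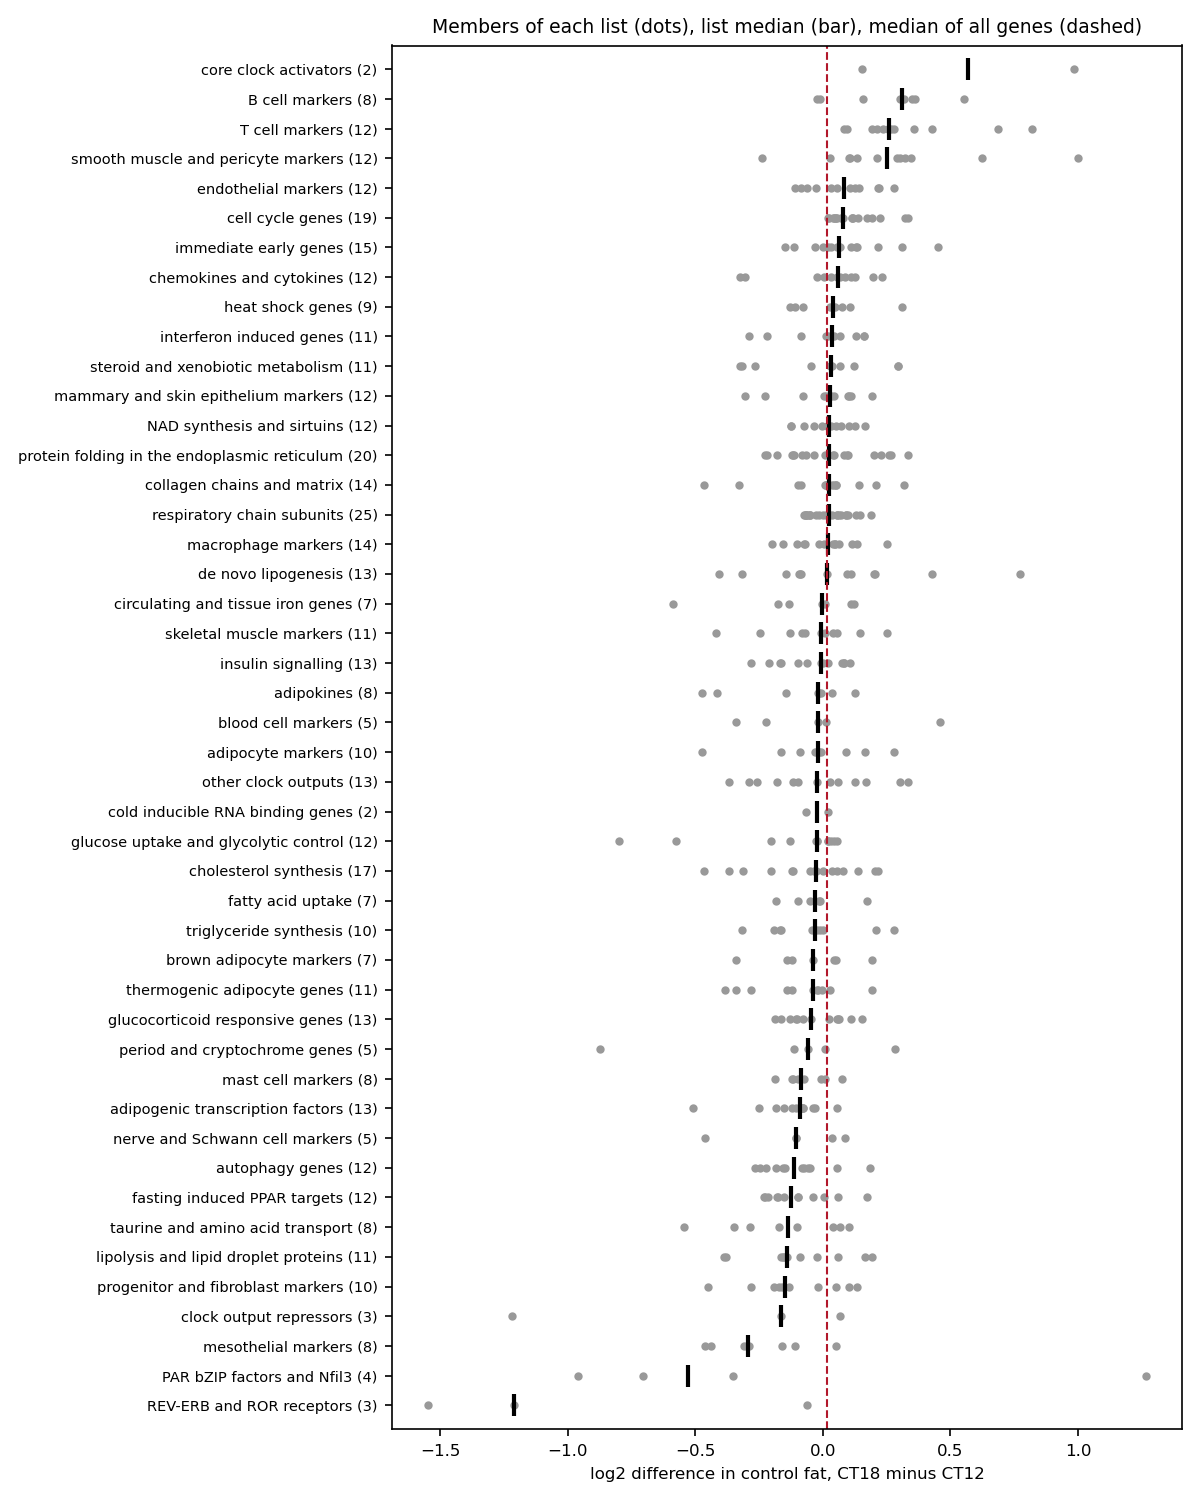
Log2 difference in control fat, CT18 minus CT12 (horizontal axis), of every measured member of each list (dots; list size in brackets); bars are list medians and the dashed line the median of all genes. The medians of the REV-ERB and ROR receptors and of the D-box regulators lie lowest, and outside the clock the medians run from -0.29 to 0.31.

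The labelled tissue was checked by its markers. The 10 adipocyte markers measured had a median level above that of 99.4% of genes, and Car3, carbonic anhydrase of fat, had 12.44 to 12.60 at CT18, against 12.36 to 12.53 at CT12. The summed level of these markers, on a log2 scale, was 14.67 to 14.87 at CT18, against 14.77 to 14.91 at CT12, so the groups overlapped. In a piece of tissue, fewer cells of a type and less RNA per cell cannot be told apart.

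Lymphocyte markers stood high on 1 array. All 12 T cell markers had higher means at CT18, with a median of 0.26, and 6 of 8 B cell markers, with a median of 0.31. On CT18 replicate 2 the summed T cell markers reached 11.03, against 9.94 and 10.03 on the other CT18 arrays and 9.98 to 10.03 at CT12. The T cell receptor component Cd3d had 5.77, 7.70 and 5.77 at CT18, against 5.50, 5.67 and 5.61 at CT12, and the B cell factor Pax5 had 6.19, 6.98 and 6.14 at CT18, against 6.13, 6.12 and 6.11 at CT12. Without CT18 replicate 2 the medians were 0.04 for T cells and -0.13 for B cells. Without CT18 replicate 1 they were 0.42 and 0.41, and without CT18 replicate 3 0.40 and 0.47. Cell cycle genes had 19 of 19 higher means, with a median of 0.08, and 13 of 19 without that array. Their median was 0.12 without CT12 replicate 2 and 0.13 without CT18 replicate 3. A part of these markers in the other differences was not tested.

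The summed level of smooth muscle and pericyte markers was higher on every CT18 array than on any CT12 array. It was 12.46 to 12.75 at CT18, against 12.37 to 12.39 at CT12. Of 12 markers 11 had higher means, and the median was 0.25, or 0.13 without CT18 replicate 1. In 6 of the 12 all CT18 arrays lay above the CT12 arrays, as in 5.67% of all genes. Cnn1, calponin of contractile cells, had 9.31, 9.53 and 9.79 at CT18, against 8.62, 8.57 and 8.45 at CT12 (1.00 ± 0.43, limma adjusted p = 0.867). Myh11, smooth muscle myosin, differed by 0.62 ± 0.39. No member passed. The median of this list was 0.26 in knockout fat too. Mesothelial markers had 7 of 8 members lower, with a median of -0.29, and -0.16 without CT18 replicate 3. Their summed level was 11.06 to 11.55 at CT18, against 11.39 to 11.78 at CT12. In knockout fat their median was 0.04. Progenitor and fibroblast markers had a median of -0.15, with 7 of 10 lower. It was -0.08 without CT18 replicate 3 and -0.06 without both doubted control arrays. Dpp4, a surface peptidase of early progenitors, differed by -0.45 ± 0.18 and did not pass. Macrophage markers had a median of 0.02 in control fat, with 8 of 14 higher. That value rests on single arrays: it was -0.14 with 1 of 14 higher without CT18 replicate 2, 0.18 with 13 of 14 higher without CT18 replicate 3, and 0.24 with 14 of 14 higher without both doubted control arrays. In knockout fat the median was -0.48, with 14 of 14 lower. The list medians of knockout fat were not read with an array left out, so their dependence on single arrays was not tested. The part of these cell types in the called differences was not tested.

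**Figure D5:**
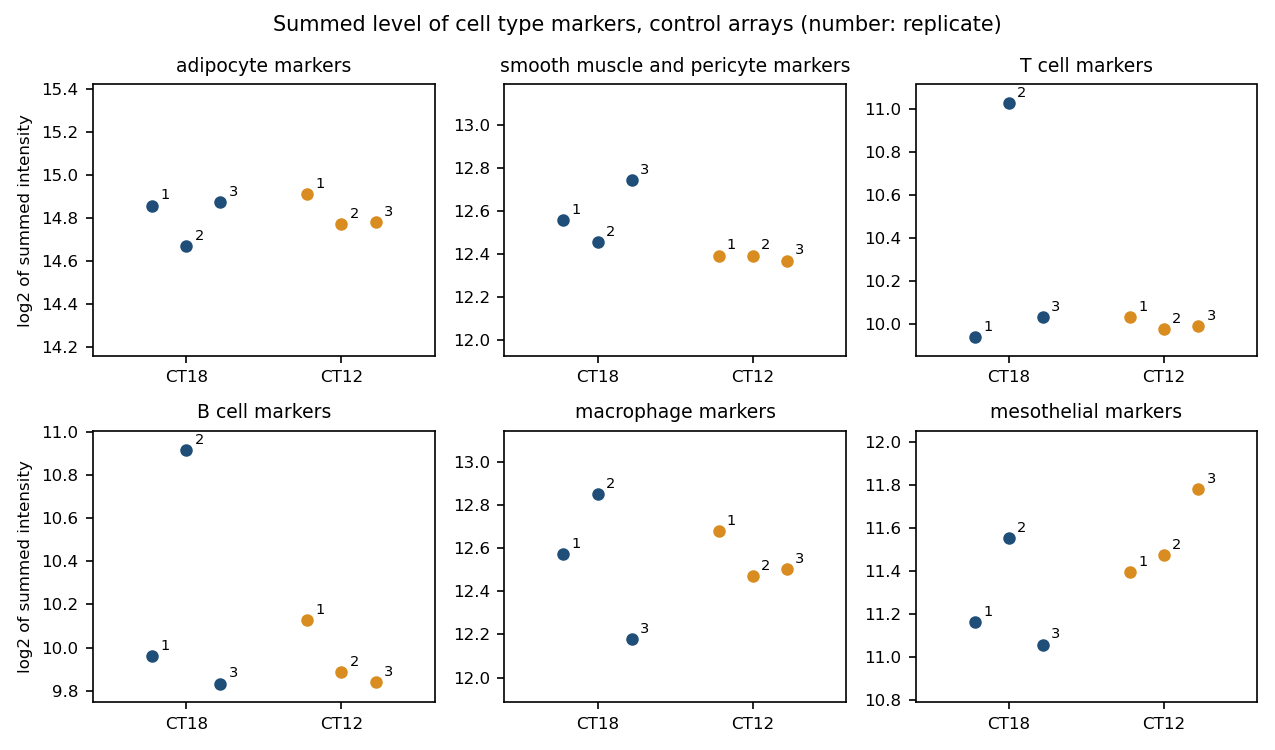
Summed level of the markers of 6 cell types (vertical axes, log2 of the summed intensities, equal span in each panel) on the control CT18 and CT12 arrays; dots are arrays and numbers replicates. CT18 replicate 2 stands high for T and B cell markers, and all CT18 arrays lie above the CT12 arrays for smooth muscle markers.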

How the data were processed

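RNA of inguinal fat was measured on 24 Affymetrix mouse gene arrays in 8 groups of 3, grouped by the genotype and circadian time in the labels. Total RNA came from a Trizol extraction and 50 ng of it was amplified and labelled with biotin, per the labels' protocols. The deposited values are log2 expression that the authors made with RMA, per the submitters' processing notes, whose version and hybridization dates were not given in the sources used. RMA summarises each probe set across arrays and pulls low values together, so the differences of dim genes are likely to be understated. The values were used as deposited. There were 35556 probe sets, and the platform annotation gave a single symbol for 21789, several for 1621 and none for 12146. Where a gene had several probe sets, the one with the highest mean was used, which left 19938 genes, without a filter on dim genes.

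A mean for each of the 8 groups was fitted by lmFit and eBayes of limma 3.58.1 (R 4.3.3), with 16 residual and 5.03 prior degrees of freedom, and Benjamini-Hochberg adjustment over all genes. Precision is limited by the number of arrays, which have no sequencing depth. The medians of the 6 control arrays lay between 6.47 and 6.55, and their correlations within a group between 0.988 and 0.995. The labels call the samples biological replicates and do not say which share a litter or a day. Motifs and figures were made in Python 3.11.15. The fits were tested on simulated data.

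The genes of the step, the 46 lists (456 of 493 genes measured) and the tests were chosen with earlier results of these data known. The genes named are the clock genes, the first 10 by p that were higher and that were lower, up to 4 members with the smallest p of a list described, the first 5 by p on each side of the difference between the genotypes' steps, and the 5 most like Nr1d1 and Arntl. Predicted genes were counted and not named. Alternatives were quantile normalization, median centring, a filter on dim genes, a trended and robust variance, every probe set, the replicate block, array weights, fewer arrays in the fit, and each array left out in turn.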

Additional observations from a re-analysis of the deposited data

How the results depend on the processing

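The count of genes called in the control step was 5, and 4 to 6 with quantile normalization, median centring, the dim gene filter, the trended variance, every probe set, the replicate block (5) or without the 4 doubted arrays. It was 1 with the 6 arrays alone, 1 with the 6 arrays and the replicate block, an alternative chosen after seeing the data, 2 with the 12 control arrays and 12 with array weights. Leaving out each array in turn gave 1 to 6. The smaller fits have fewer residual degrees of freedom. In the knockout step the count was 3, against 5 with median centring and 6 with the dim gene filter, and 3 to 139 with an array left out, with 15 without knockout CT12 replicate 3 and 139 without knockout CT18 replicate 2 (the cause was not tested). For the control step minus the knockout step the count was 0, and 0 to 2 with an array left out. Same-numbered arrays of the 2 times deviated with correlations of -0.085, -0.15 and -0.20, so the numbers were not taken as pairs. Differences near 0 changed sign: Cry2 was -0.00945 with quantile normalization and -0.014 with median centring, and -0.105 to 0.146 with an array left out. Leaving out an array gave -0.146 to 0.0235 for Per2, -0.171 to 0.095 for Rora, -0.0049 to 0.138 for Bhlhe40, -0.415 to 0.0727 for Ciart and -0.00555 to 0.311 for Dtx4. Gene by gene, 15 alternatives were read, without array weights and without the 6 arrays with the replicate block. The mean of a gene's probe sets took the place of every probe set there. Over these, the limma adjusted p ran from 3.06e-05 to 0.00854 for Nr1d1, 5.61e-05 to 0.192 for Nr1d2 and 0.000647 to 0.408 for Arntl. It ran from 0.0167 to 0.423 for Dbp and 0.00891 to 0.41 for Zfp622. All alternatives planned were run, but array weights were read only for the count of the control step. With 3 arrays a group, changes near the size of the replicate spread are not detectable.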

Other observations

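Other outputs of the clock, 13 genes outside the loop itself, had 6 higher and 7 lower means at CT18 and a median log2 difference of -0.02, which was -0.11 without CT18 replicate 1 and 0.0066 without CT18 replicate 2. Lonrf3 had 7.04, 6.94 and 6.74 at CT18, against 6.62, 6.48 and 6.71 at CT12 (0.30 ± 0.13), and Coq10b, which takes part in the use of coenzyme Q, had 7.86, 8.15 and 7.99 at CT18, against 8.30, 8.29 and 8.51 at CT12 (-0.37 ± 0.15). Both had groups without overlap, and neither passed. Srebf2, the main regulator of cholesterol synthesis, had 6.94, 6.90 and 7.02 at CT18, against 6.77, 6.79 and 6.64 at CT12 (0.22 ± 0.07, limma adjusted p = 0.744). Of the 17 measured genes of cholesterol synthesis, 7 had higher and 10 lower means, with a median of -0.03. Without CT12 replicate 1 the tally was 13 higher and 4 lower with a median of 0.09, and without CT12 replicate 3 it was 4 higher and 13 lower with a median of -0.09. Without CT18 replicate 2, 10 were higher and 7 lower. Ccl11, the eosinophil chemokine eotaxin, had 10.71, 10.65 and 10.63 at CT18, against 10.78, 10.99 and 11.14 at CT12 (-0.31 ± 0.10), and its knockout difference was -0.48 ± 0.10. Neither genotype's difference passed.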
